A study of Mus musculus with 18 samples.

Results

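The effect of withdrawing LIF was examined in embryoid bodies (EBs) on Day 4 of differentiation. The features compared were the spotted cDNA clones of the NIA 15K mouse set with 1 gene symbol and a ratio on all 4 Day 4 arrays, which gave 9862 of the 15360 clones on the 2 slides, or 7138 genes. D4-LIF was 2 arrays of EBs grown for 4 days in ES medium without LIF, and D4+LIF was 2 arrays of EBs of the same age in the same medium with LIF. Both groups came from the mouse ES cell line IMT11, grown without feeders, and both were started as hanging drops of 1000 cells in 10 µl and then floated in medium with serum, so serum was common to both. Every sample was hybridised against a pooled EB control, labelled with Cy3 for the first array of a group and with Cy5 for the second, and 18 such arrays of 9 conditions make up the experiment. RNA came from many EBs together, so that fewer cells of a type and less RNA per cell cannot be told apart.

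LIF is a cytokine of the interleukin-6 family. It binds the LIF receptor and gp130 (Il6st), which activates the kinase Jak1 and the transcription factor Stat3, and Stat3 in turn keeps genes such as Klf4, Tfcp2l1 and Socs3 active in mouse ES cells. EBs are aggregates in which ES cells leave the undifferentiated state and form primitive endoderm, primitive ectoderm and then early germ layer cells.

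All values below are log2 ratios to the pooled control, with duplicate spots averaged and each array centred on its median within a slide, and all differences are D4-LIF minus D4+LIF. The 2 arrays with the sample in Cy3 form the Cy3 pair and the 2 with the sample in Cy5 the Cy5 pair. The direction of the deposited ratios is not stated, and sample over pool is likely, because the labels give the sample as the first channel on every array. Arrays of 1 dye correlated positively across clones (r = 0.80 and 0.90 on slide 1, 0.63 and 0.89 on slide 2), whereas arrays of opposite dye gave r of -0.64 to -0.59 on slide 1 and -0.36 to 0.02 on slide 2. Levels against the pool therefore differed in sign between dyes for many genes, and only differences within a dye pair are compared. On slide 2 the D4+LIF array in Cy5 stood apart, with a standard deviation over clones of 1.41 and a median ratio of 2.95, against 0.59 and 1.45 on the D4-LIF array in Cy5 and 0.22 and 0.17 as standard deviations of the D4-LIF and D4+LIF arrays in Cy3. The Cy5 differences of slide 2 rest on that array, and values of slide 1 or of the Cy3 pair are given beside results from it.

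No gene passed the test between D4-LIF and D4+LIF EBs. In limma with LIF and dye terms, 0 of 7138 genes passed an adjusted p of 0.05 (Benjamini-Hochberg), which is 0% of those tested, and the smallest adjusted p was 0.728. At an unadjusted p under 0.05, 99 genes (1.39%) had higher and 35 genes (0.49%) lower values in D4-LIF. The standard error of a gene's difference was 0.20 at the median, with 1 residual degree of freedom per gene before the spread was shared across genes. Of all genes, 2246 (31.5%) were higher and 1990 (27.9%) lower in D4-LIF in both dye pairs, and the remaining 2902 lay on opposite sides of 0 in the 2 pairs or at 0. Which genes count as the same side depends on the direction of the ratios. If the Cy3 sign is turned 1914 genes were higher and 985 lower in both pairs, so the turned counts are given beside most gene lists that stood out. With equal spread of the arrays (equal MAD) 1710 of the 7138 genes were higher and 2260 lower in both pairs, and with quantile normalization 1906 and 2067. Turned or scaled counts of a list are to be read against these.

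The 2 dye pairs agreed weakly across clones. The Cy3 and the Cy5 difference gave r = 0.22 over 15354 clones, 0.15 on slide 1 and 0.39 on slide 2, and turning the sign of the Cy3 arrays makes these values negative. The points share arrays and print positions, and with each print grid (360 spots in the order of the file) centred by itself r was 0.0334 on slide 1. The spread of the differences was 0.31 in Cy3 and 0.29 in Cy5 on slide 1, and 0.17 in Cy3 and 0.93 in Cy5 on slide 2.

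**Figure D1:**
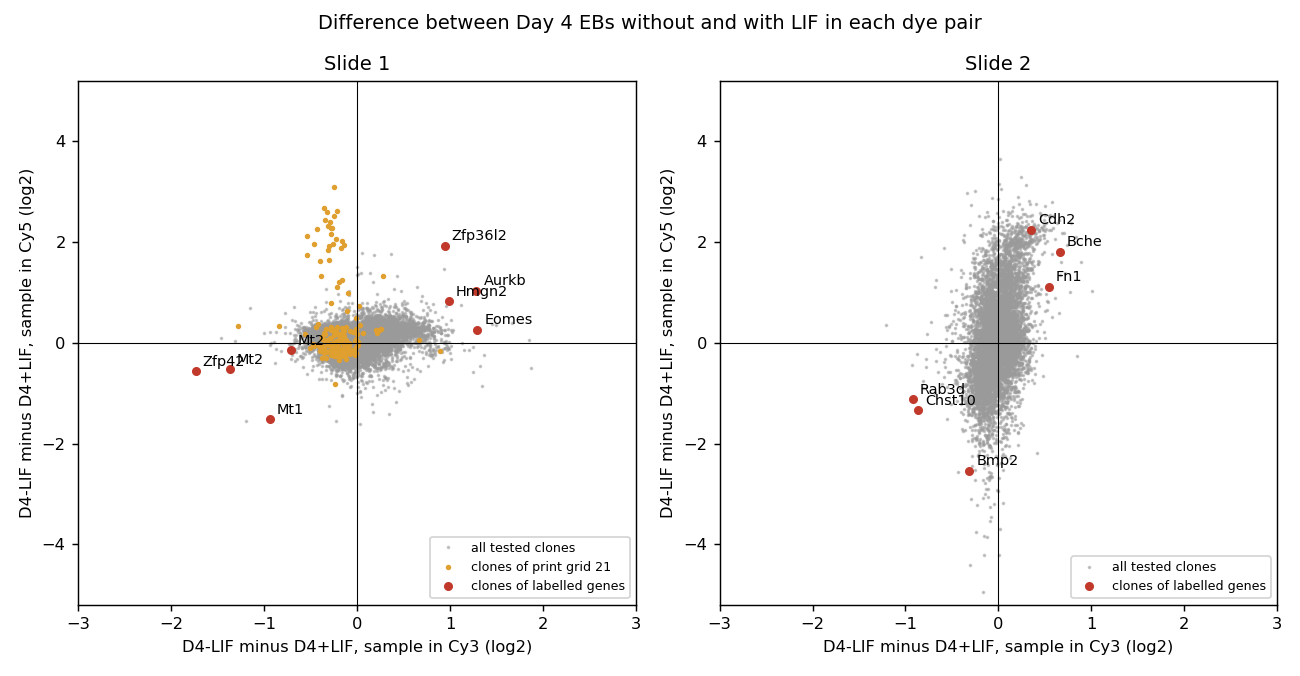
Difference between D4-LIF and D4+LIF in the Cy3 pair (x axis, log2) against that in the Cy5 pair (y axis, log2), 1 point per clone, with slide 1 on the left and slide 2 on the right; the x axis spans a smaller range than the y axis. The differences of slide 2 are spread along the Cy5 axis, and a group of slide 1 clones from print grid 21 is high in the Cy5 pair only.

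At least 2-fold apart on the same side in both pairs were 2 clones higher in D4-LIF (0.013% of 15354) and 1 clone lower (0.00651%), and none of the 3 held this limit in each of its duplicate spots. The higher clones were those of Aurkb, the mitotic kinase of the chromosomal passenger complex, and of Atp6v1b2, a subunit of the vacuolar proton pump. The Atp6v1b2 clone differed by 1.00 in Cy3 and by 1.04 in Cy5, but its duplicate spots lay 3.43 apart on the D4+LIF array in Cy5. The lower clone was 1 of 6 clones of Tkt, the transketolase of the pentose phosphate pathway. It differed by -1.19 and -1.55, with duplicate spots 3.34 apart on the D4+LIF array in Cy5, while the other Tkt clones averaged from -0.72 to 0.72, so that the gene as a whole differed by -0.07 ± 0.19 (SE, n = 2 arrays a group). The Tkt clones thus did not behave as 1 transcript.

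Aurkb gave the smallest p of all genes. Its clone read 3.36 in Cy3 and 1.58 in Cy5 in D4-LIF, against 2.08 and 0.54 in D4+LIF. D4-LIF was the higher array within each dye, although the ranges of the groups overlapped because of the dyes. The difference was 1.16 ± 0.20 (SE), or 2.24-fold, with an adjusted p of 0.728 by limma.

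The next genes with higher values in D4-LIF included RNA and chromatin proteins. Zfp36l2, an RNA-binding protein that speeds the decay of AU-rich transcripts, read 0.97 and -0.87 in D4-LIF and 0.03 and -2.80 in D4+LIF (Cy3, then Cy5, here and below), with duplicate spots 3.72 apart on the D4+LIF array in Cy5. Hmgn2, a nucleosome-binding protein, read 2.10 and -1.60 in D4-LIF and 1.12 and -2.42 in D4+LIF. Hint1, a nucleotide hydrolase, read 0.94 and -0.93 in D4-LIF and 0.23 and -1.59 in D4+LIF. In each of these genes D4-LIF was higher within both dyes, and the differences were 1.43 ± 0.29, 0.91 ± 0.19 and 0.68 ± 0.19 (SE). Klhdc2, a substrate receptor of a ubiquitin ligase, read 1.00 and -0.03 in D4-LIF and 0.05 and -0.76 in D4+LIF, a difference of 0.84 ± 0.19. These 4 genes are on slide 1, outside the slide with the spread-out array.

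The cytoskeletal genes Actg1 and Myl12b had clones on both slides. Actg1, cytoplasmic gamma-actin, read 0.85 and -1.38 in D4-LIF and -0.11 and -2.40 in D4+LIF. Its slide 2 clone differed by 0.71 and 2.19, and its slide 1 clone by 1.21 and -0.14, so the clones did not share a side in Cy5. Myl12b, a regulatory light chain of non-muscle myosin, differed by 0.78 and 0.65 on slide 1 and by 0.33 and 2.01 on slide 2, so that all values of both clones were higher in D4-LIF. On slide 2 alone were A730082K24Rik, Bche (butyrylcholinesterase) and Ptma (prothymosin alpha, an abundant acidic nuclear protein), whose Cy3 pairs differed by 0.84, 0.66 and 0.66 and whose Cy5 pairs differed by 2.09, 1.81 and 1.83. Scaled to an equal spread of the arrays, these 3 differences had the other sign.

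A metallothionein and a marker of undifferentiated cells were among the 10 genes of smallest p with lower values in D4-LIF. Mt1, which encodes a small protein that binds zinc and other metals, read -0.56 and -2.36 in D4-LIF, against 0.38 and -0.84 in D4+LIF. Zfp42 (Rex1), a zinc finger protein that marks undifferentiated ES cells, read -0.39 and -1.52 in D4-LIF, against 1.35 and -0.96 in D4+LIF. D4-LIF was the lower array within both dyes for both genes, with differences of -1.23 ± 0.23 and -1.15 ± 0.33 (SE), and the adjusted p of each was 0.728. The duplicate spots of Mt1 lay 1.81 apart on the D4+LIF array in Cy5, and those of Zfp42 were never more than 0.14 apart.

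**Figure D2:**
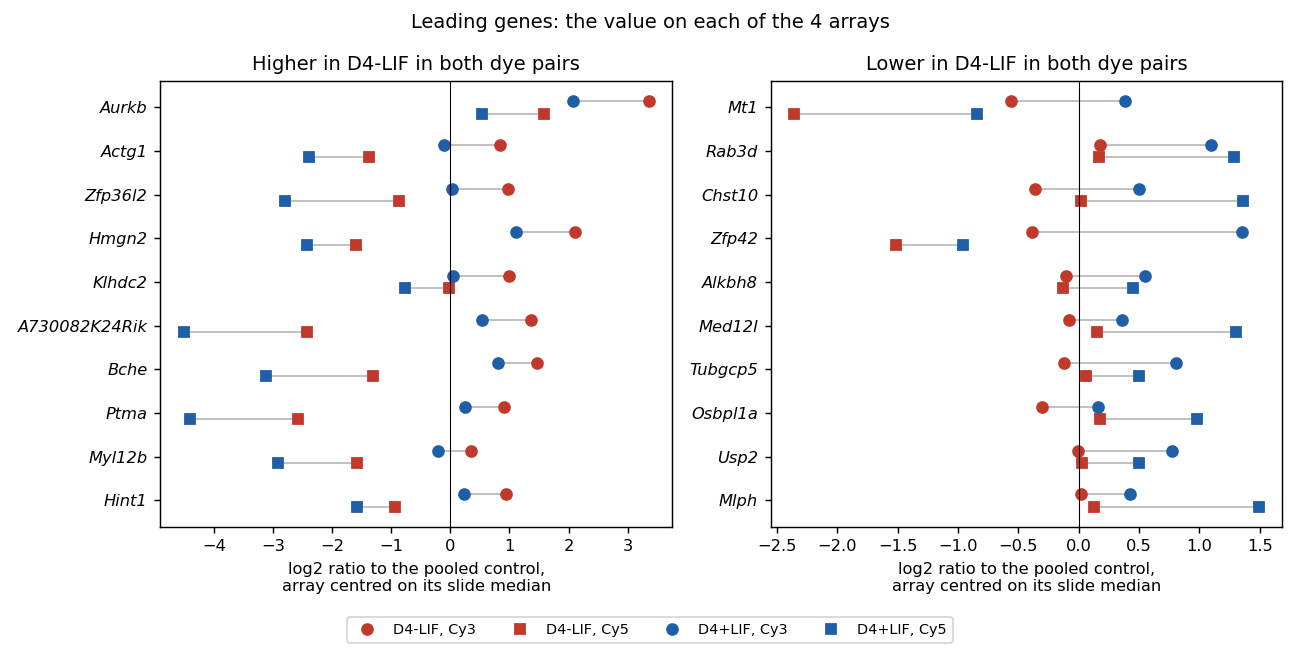
Log2 ratio to the pooled control on each of the 4 arrays (x axis) for the 10 genes of smallest p with higher values (left) and with lower values (right) in D4-LIF in both dye pairs; red marks are D4-LIF and blue marks D4+LIF, circles Cy3 and squares Cy5, and a grey line joins each pair. In Aurkb and Zfp36l2 the red mark lies to the right of the blue one in both dyes, and in Mt1 and Zfp42 to the left.

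The other 8 leading genes with lower values were all on slide 2. Rab3d, a small GTPase of secretory vesicles, read 0.18 and 0.17 in D4-LIF and 1.10 and 1.28 in D4+LIF, and Chst10, a sulfotransferase, read -0.36 and 0.02 in D4-LIF and 0.50 and 1.36 in D4+LIF. In both genes all D4-LIF values lay below all D4+LIF values, with differences of -1.02 ± 0.19 and -1.10 ± 0.22 (SE). The duplicate spots of Rab3d lay 2.26 apart on the D4+LIF array in Cy3. The others, Alkbh8, Med12l, Tubgcp5, Osbpl1a, Usp2 and Mlph, differed by -0.89 to -0.62, and their D4-LIF arrays read -0.30 to 0.18 while both D4+LIF arrays were above 0 in each. The duplicate spots of Usp2 and those of Tubgcp5 lay 1.67 apart on the D4+LIF array in Cy3.

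The second metallothionein had lower values as well. Mt2, a neighbour of Mt1 on chromosome 8, was spotted as 2 clones of slide 1, which differed by -1.37 and -0.53 and by -0.71 and -0.14. The gene read -0.51 and -2.10 in D4-LIF, against 0.54 and -1.77 in D4+LIF, a difference of -0.69 ± 0.25 (SE, adjusted p = 0.728). All 3 metallothionein clones were lower in D4-LIF in both pairs. Without the D4+LIF array in Cy3, in the fit of all 18 arrays, Mt2 differed by 0.13, so its sign rested on that array. The 2 promoters are shown because these genes had lower values together and share a known regulator, the metal-responsive factor Mtf1, which binds metal response elements (Mtf1 itself differed by -0.30 and -0.26, or by -0.07 on average with each print grid centred). The 250 bases before each start site as annotated in RefSeq (GRCm38.p6) were read. They lie at chr8:94178839-94179088 for Mt1 and at chr8:94172368-94172617 for Mt2, both on the plus strand. Capitals mark the core of the element, searched on both strands as TGCACNC or TGCGCNC.
Mt1: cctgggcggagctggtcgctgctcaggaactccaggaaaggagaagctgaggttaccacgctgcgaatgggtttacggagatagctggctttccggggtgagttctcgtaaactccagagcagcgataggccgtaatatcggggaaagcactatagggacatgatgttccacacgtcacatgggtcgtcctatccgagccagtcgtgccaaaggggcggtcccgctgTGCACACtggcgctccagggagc
Mt2: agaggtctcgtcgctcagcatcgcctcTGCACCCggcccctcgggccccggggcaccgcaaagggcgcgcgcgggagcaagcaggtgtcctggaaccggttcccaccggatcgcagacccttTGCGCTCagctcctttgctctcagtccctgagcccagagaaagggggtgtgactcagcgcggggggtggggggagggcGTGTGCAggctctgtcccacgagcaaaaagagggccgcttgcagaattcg
Within these windows the core occurred 1 time for Mt1 and 3 times for Mt2. It occurred at least 1 time in 21.4% and at least 2 times in 5.17% of 32851 promoter windows of the same length. Elements outside the windows were not searched, and the counts depend on where the start is annotated, so they do not give all elements of either promoter. A match of these letters does not show binding.

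Other genes of metal and oxidant handling were not lower together. Of 29 measured genes of the iron and antioxidant list, which holds Mt1 and Mt2 too, 8 were higher in D4-LIF in both pairs. Lower in both pairs were 9, Mt1 and Mt2 among them, and none passed the test. The median difference was 0.01, close to the 0.02 of all genes. Hmox1, heme oxygenase, differed by -0.15 and -0.42 (-0.06 on average with each print grid centred), Cat, catalase, by -0.42 and -0.34, and Slc40a1, the iron exporter ferroportin, by -0.24 and -0.45. Tfrc, the transferrin receptor, differed by -0.10 and -0.25, and the ferritin chains Fth1 and Ftl1 by -0.22 and -0.02 and by -0.13 and 0.12. Txnrd1 and Prdx2, which reduce thioredoxin and peroxides, were higher in D4-LIF, by 0.17 and 1.21 and by 0.06 and 0.63.

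No gene of LIF signalling itself passed the test. Of 20 measured genes, 10 were higher (50%, against 31.5% of all genes) and 4 lower (20%, against 27.9%) in D4-LIF in both pairs. The median difference was 0.05. With the Cy3 sign turned 3 were higher and 3 lower, with equal spread of the arrays 2 and 5, and with quantile normalization 4 and 3. Lif, the ligand, read -0.22 and -0.17 in D4-LIF and 0.08 and 0.17 in D4+LIF, lower on both D4-LIF arrays, with a difference of -0.32 ± 0.19 (SE); centred by print grid it was -0.05. The receptor subunit Il6st, on slide 2, differed by 0.04 and 0.47. The kinase Jak1 differed by 0.16 and 0.38, and Jak2 by 0.04 and 0.03. Stat3, with 3 clones, differed by -0.09 and -0.45, of which 1 slide 2 clone gave -0.09 and -1.53 and the slide 1 clone 0.08 and 0.00. The negative mean of Stat3 thus came mainly from 1 clone on the slide of the spread-out array.

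The inhibitors of the pathway were split. Socs3, which Stat3 induces and which blocks gp130, read 0.21 and -1.23 in D4-LIF and 0.16 and -1.27 in D4+LIF, and the 2 groups differed by 0.05 ± 0.19 (SE). Cish, another inhibitor of cytokine receptors, differed by -0.11 and -1.63 on slide 2, and Pias1 and Pias2, inhibitors of STAT factors, by -0.01 and 0.13 and by 0.11 and -0.13. In the branch to the MAP kinases, Map2k1 and Shc1 differed by 0.08 and 1.79 and by 0.08 and 1.50 on slide 2, Grb2 by 0.07 and 0.13, and Gab1, an adaptor of slide 1, by -0.57 and -0.03. Sos1 differed by -0.16 and 2.02, with duplicate spots 3.92 apart on the D4+LIF array in Cy5, and it lies in print grid 21 of slide 1, described below. Of the kinases beside the pathway, Pik3ca differed by 0.05 and 0.15, Akt1 by -0.15 and 0.03 and Gsk3b by 0.03 and -0.38. The 250 bases before the Socs3 start site (RefSeq, GRCm38.p6, chr11:117969367-117969616, minus strand) are shown because Socs3 is a well known direct target of Stat3, and capitals mark the STAT element TTCNNNGAA.
Socs3: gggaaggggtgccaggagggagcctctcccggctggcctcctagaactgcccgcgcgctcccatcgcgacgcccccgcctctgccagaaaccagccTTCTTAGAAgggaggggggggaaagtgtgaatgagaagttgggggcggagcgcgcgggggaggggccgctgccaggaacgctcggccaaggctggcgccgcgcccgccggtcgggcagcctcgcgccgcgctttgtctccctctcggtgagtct
This element occurred 1 time before Socs3 and at least 1 time in 7.02% of the 32851 windows. The match does not show that Stat3 bound there.

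**Figure D3:**
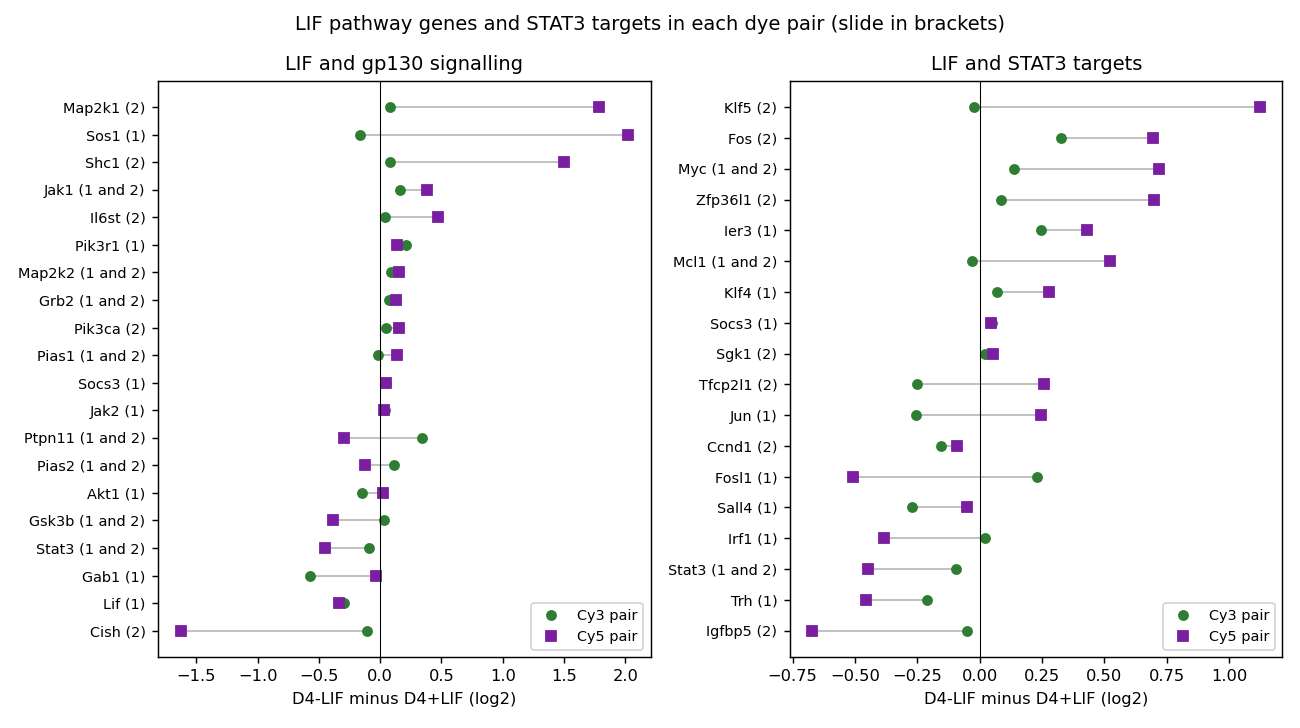
D4-LIF minus D4+LIF (x axis, log2) for the measured genes of LIF and gp130 signalling (left) and for targets of LIF and STAT3 (right), with the Cy3 pair as circles, the Cy5 pair as squares and the slide of each gene in brackets. The Cy3 differences run from -0.57 (Gab1) to 0.34 (Ptpn11), and the long lines to the Cy5 pair belong mainly to slide 2 genes and to Sos1.

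Targets of LIF and STAT3 showed no common direction. Of 18 measured genes, 7 were higher (38.9%, against 31.5% of all genes) and 5 lower (27.8%, against 27.9%) in D4-LIF in both pairs. The median difference was 0.02, and none passed the test. With equal spread of the arrays 4 were higher and 7 lower, with quantile normalization also 4 and 7, and with the Cy3 sign turned 4 and 2. The factors that hold the undifferentiated state gave 0.07 and 0.28 for Klf4, -0.02 and 1.12 for Klf5 and -0.25 and 0.26 for Tfcp2l1. Immediate early genes gave 0.33 and 0.69 for Fos, -0.26 and 0.24 for Jun and 0.25 and 0.43 for Ier3, and Myc gave 0.14 and 0.72. With each print grid centred the mean differences of Fos and Ier3 were 0.22 and 0.06, against 0.51 and 0.34 without. Myc was spotted on both slides, with 0.32 and 1.44 on slide 2 and -0.04 and 0.00 on slide 1. Lower in both pairs were Sall4 (-0.27 and -0.05), Ccnd1 (-0.16 and -0.09), Igfbp5 (-0.05 and -0.67), Trh (-0.21 and -0.46) and Stat3. Trh, the precursor of thyrotropin-releasing hormone, read 1.44 and -1.05 in D4-LIF and 1.65 and -0.60 in D4+LIF.

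Pluripotency genes were lower in D4-LIF in the Cy3 pair and not in the Cy5 pair. In Cy3, 21 of 25 measured genes (84%) were below 0, against 54.7% of all genes, whereas in Cy5 only 7 (28%) were, against 41.7% of all genes. In both pairs 6 were lower and 3 higher, which is 24% and 12%, against 27.9% and 31.5% of all genes. With equal spread of the arrays, 10 of the 25 were lower and 2 higher in both pairs, against 2260 and 1710 of all 7138 genes. With the Cy3 sign turned 1 was lower and 15 were higher, so the side of this list is not settled. The 6 were Zfp42, Dppa2 (-0.59 and -0.29), Gdf3 (-0.30 and -0.24), Tex19.1 (-0.17 and -0.21), Rest (-0.48 and -0.04) and Sall4.

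The core factors were not among them. Pou5f1 (Oct4) read 1.16 and -1.34 in D4-LIF and 1.13 and -1.83 in D4+LIF, a difference of 0.26 ± 0.22 (SE). Nanog read -0.05 and -1.53 in D4-LIF and 0.32 and -1.90 in D4+LIF, lower in D4-LIF in Cy3 and higher in Cy5. Dppa5a, an RNA-binding protein of ES cells, gave -0.59 and 1.88 and Fbxo15 gave -0.55 and 1.09, the first on slide 2 and the second on both slides. On slide 1 alone, where 12 of the genes lay, 5 were lower and 3 higher in both pairs. The 3 higher genes were Izumo1r, Klf4 and Pou5f1, and Izumo1r (Folr4) read 0.62 and 0.48 in D4-LIF and -0.24 and 0.15 in D4+LIF. The duplicate spots of Izumo1r lay 1.81 apart on the D4-LIF array in Cy3.

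Most measured genes of primitive ectoderm had higher values in D4-LIF. Of 6 measured, 5 were higher in both pairs (83.3%, against 31.5% of all genes) and none passed the test, with a median difference of 0.54. Dnmt3b, a de novo DNA methyltransferase of the epiblast, read 1.56 and -0.47 in D4-LIF and 1.16 and -1.003 in D4+LIF, a difference of 0.46 ± 0.19 (SE). Cdh2 (N-cadherin) differed by 0.35 and 2.25 and Cd24a by 0.20 and 1.02, both on slide 2, and Dnmt3a and Otx2 by less than 0.08 in either pair. Pou3f1 (Oct6) gave -0.30 and 1.93, with duplicate spots 3.36 apart on the D4+LIF array in Cy5, and lies in print grid 21. With equal spread of the arrays 2 of the 6 were higher and 1 lower in both pairs, and with the Cy3 sign turned 1 was higher and 0 lower.

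Of 7 mesendoderm genes, 5 were higher and 2 lower in D4-LIF in both pairs, with a median difference of 0.27. That median was 0.09 with each print grid centred, and with the Cy3 sign turned it was -0.0089 with 0 genes on either side in both pairs. Eomes, a T-box factor of early mesendoderm and trophoblast, read 1.02 and 0.36 in D4-LIF, against -0.27 and 0.10 in D4+LIF. Both D4-LIF values were above both D4+LIF values, and the difference was 0.77 ± 0.30 (SE, adjusted p = 0.728), or 0.48 when centred by print grid. Hand1, a factor of mesoderm and trophoblast, read 0.36 and 0.16 in D4-LIF and -0.15 and -0.06 in D4+LIF, again without overlap; centred by print grid it differed by 0.05. Hoxb1 differed by 0.28 and 0.26, Pdgfra by 0.12 and 0.30 and Mesp2 by 0.20 and 0.89, while Bmp4 (-0.37 and -0.16) and Gata2 (-0.05 and -0.53) were lower. Mesp2 was spotted as 3 clones, of which 1 on slide 2 gave 0.51 and 2.39 and those of slide 1 -0.07 and 0.34 and 0.15 and -0.05. The 5 trophoblast genes had 2 higher and none lower in both pairs, and the 2 are Eomes and Hand1.

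No gene of extraembryonic endoderm, the outer layer of an EB, passed the test. Of 28 genes measured, 12 were higher (42.9%, against 31.5% of all genes) and 3 lower (10.7%, against 27.9%) in D4-LIF in both pairs, with a median of 0.05. With the Cy3 sign turned 10 were higher and 3 lower, and with equal spread of the arrays 8 and 5. Gata6 and Gata4, factors of primitive endoderm, differed in opposite directions, with 0.33 and 0.23 for Gata6 and -0.11 and -0.36 for Gata4. Fn1 (fibronectin) read 0.76 and -0.32 in D4-LIF and 0.22 and -1.43 in D4+LIF, a difference of 0.83 ± 0.23 (SE). Bmp2 differed by -0.31 and -2.54 on slide 2, with duplicate spots 2.31 apart on the D4+LIF array in Cy5. The laminin chains Lama1, Lamb1 and Lamc1 gave -0.14 and 0.12, -0.06 and 0.21 and 0.05 and 0.77. In the list of basement membrane and matrix genes, 11 of 24 were higher and 4 lower in both pairs; Itgb1, the integrin beta 1 chain, differed by 0.35 and 1.74 on slide 2. With equal spread of the arrays, 2 of these 24 were higher and 9 lower, and with the Cy3 sign turned 7 and 2.

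Few markers of other cells were measured, and none passed the test. Of 5 neurectoderm genes none was higher and 2 were lower in both pairs, Gap43 (-0.03 and -0.55) and Mapt (-0.16 and -0.05), and Tubb3, neuronal beta-tubulin, gave 0.16 and -1.22. Of 6 erythroid genes none was higher and 3 were lower in both pairs. Alas2, the heme synthesis enzyme of red cells, read -0.33 and 0.02 in D4-LIF and 0.02 and 0.44 in D4+LIF, and the embryonic globin Hbb-y differed by -0.13 and -0.93 over 4 clones. Of 10 fibroblast genes 7 were lower (70%, against 27.9% of all genes) and 2 higher in both pairs. Among them were Col1a1 (-0.13 and -0.67), Timp2 (-0.24 and -0.96) and Dcn (-0.20 and -0.57). All but 1 of the 10 fibroblast genes were measured on slide 2 only, with equal spread of the arrays 4 were lower and 3 higher, and with the Cy3 sign turned 0 were lower and 1 higher. The ratio to an EB pool does not show whether a cell type was present.

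Cytosolic ribosomal protein genes were the list farthest from 0. Of 72 measured, 66 were higher in D4-LIF in both pairs (91.7%, against 31.5% of all genes) and 1 lower, 12 had an unadjusted p under 0.05, and none passed the adjusted test. The median difference was 0.24 in Cy3 and 1.45 in Cy5. On slide 2 the 125 clones of these genes had a median of -0.03 in D4-LIF, against -0.18 in D4+LIF, in Cy3, and of -2.21 in D4-LIF, against -4.30 in D4+LIF, in Cy5. On slide 1 the 55 clones had a median of 0.98 in D4-LIF, against 0.68 in D4+LIF, in Cy3, and of -2.41 in D4-LIF, against -2.57 in D4+LIF, in Cy5. The large Cy5 difference was thus on the slide where the D4+LIF array was spread out, and the Cy5 clone medians of slide 1 lay closer together. The 7 genes measured on slide 1 only had a median Cy5 difference of 0.02, against 0.09 in all genes of slide 1 only. In Cy3 these medians were 0.26 and -0.01. With equal spread of the arrays 19 of the 72 genes were higher and 7 lower in both pairs, against 1710 and 2260 of all 7138 genes. Their median difference was then -0.11, against -0.03 for all genes. The sign of the median thus flipped with that scaling, while more of the genes were still higher than lower in both pairs. With quantile normalization the median was 0.28. With the Cy3 sign turned only 2 of the 72 were higher and 3 lower in both pairs, so their shared side rests on the direction of the ratios.

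**Figure D4:**
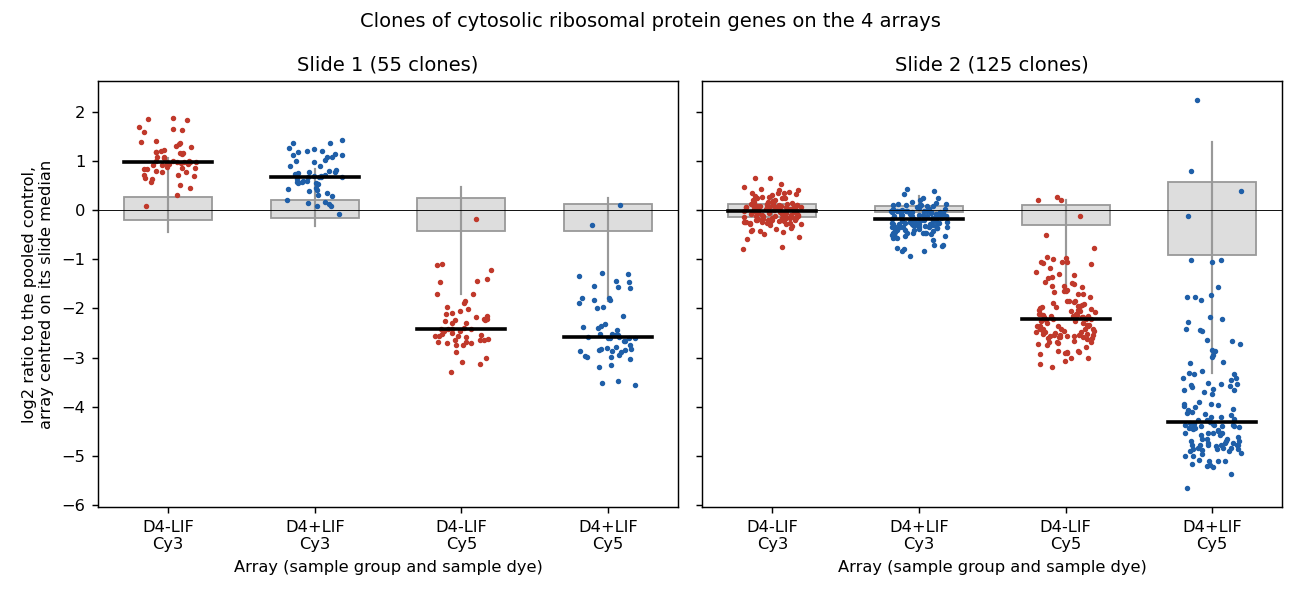
Log2 ratio to the pooled control (y axis) of the clones of cytosolic ribosomal protein genes on the 4 Day 4 arrays, for slide 1 (left) and slide 2 (right). Coloured points are clones (red D4-LIF, blue D4+LIF), black bars their medians, and grey boxes and lines the quartiles and the 5% to 95% range of all clones of that array; the lowest median, -4.30, is that of the D4+LIF array in Cy5 on slide 2.

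Individual ribosomal protein genes followed this pattern. Rpl6, with 3 clones on slide 2, read 0.32 and -2.79 in D4-LIF and -0.04 and -5.16 in D4+LIF. Rps4x and Rps6, also 3 clones each on slide 2, differed by 0.29 and 2.18 and by 0.25 and 2.13. Rps20, on both slides, read 0.45 and -2.40 in D4-LIF and -0.05 and -3.75 in D4+LIF, a difference of 0.93 ± 0.27 (SE). Ribosomal protein cDNAs have many near-identical pseudogenes, and spotted cDNAs do not tell such copies apart.

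Other gene lists also held more genes with higher than with lower values, as did all genes (31.5% higher and 27.9% lower in both pairs). In splicing and hnRNP genes 32 of 46 were higher and 3 lower in both pairs, in chromatin and DNA methylation genes 31 of 50 and 3, in cytoskeleton genes 26 of 49 and 6, in chaperones 22 of 43 and 3, in translation factors 20 of 41 and 6 and in oxidative phosphorylation genes 24 of 56 and 9. In proteasome and ubiquitin genes 21 of 44 were higher and 2 lower, in cell cycle genes 24 of 58 and 9, in glycolysis and pentose phosphate genes 9 of 19 and 3, in hypoxia genes 8 of 19 and 5, in cholesterol synthesis genes 4 of 9 and 2 and in p53 targets and apoptosis genes 7 of 17 and 4. Hypoxia (42.1% higher and 26.3% lower), cholesterol synthesis (44.4% and 22.2%) and p53 target genes (41.2% and 23.5%) lay near the shares of all genes. No gene of these lists passed the test. With equal spread of the arrays 11 splicing and hnRNP genes were higher and 9 lower, 7 and 11 translation factors, and 12 and 14 oxidative phosphorylation genes, while 20 chromatin genes were higher and 7 lower, 20 and 9 cytoskeleton genes, 12 and 7 chaperones, 15 and 10 proteasome genes, 18 and 14 cell cycle genes, 8 and 3 glycolysis genes, 7 and 4 hypoxia genes, 3 and 2 cholesterol synthesis genes and 5 and 3 p53 targets. With the Cy3 sign turned 6 splicing and hnRNP genes were higher and 5 lower, 9 and 7 chromatin genes, 9 and 8 cytoskeleton genes, 9 and 9 chaperones, 9 and 6 translation factors, 16 and 7 oxidative phosphorylation genes and 15 and 6 proteasome genes, and for 12 and 13 cell cycle, 2 and 5 glycolysis and 2 and 4 hypoxia genes fewer were higher than lower. On slide 1 alone the medians were 0.23 in splicing and hnRNP, 0.17 in chromatin, 0.05 in cytoskeleton, 0.08 in chaperone and 0.12 in translation factor genes, against 0.02 in all genes of that slide.

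**Figure D5:**
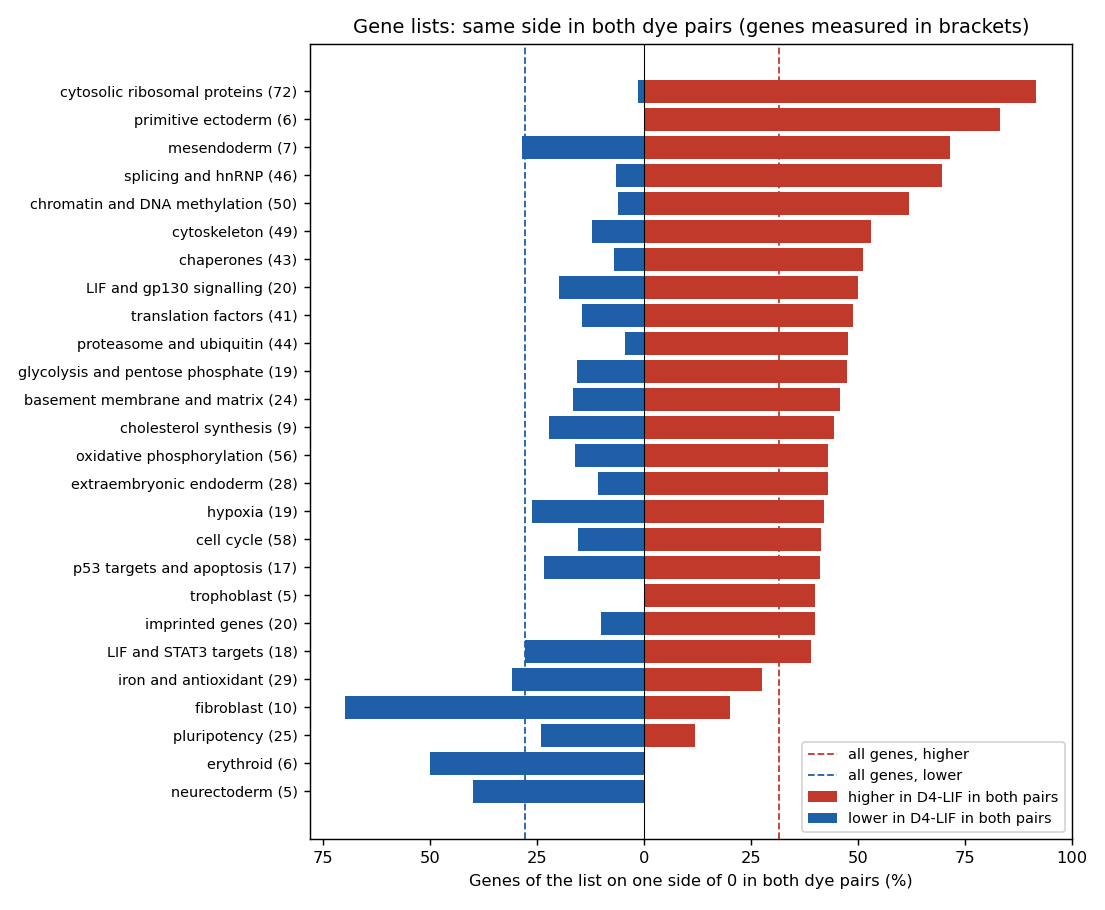
Share of the measured genes of each list (%, x axis) that was higher (red, to the right) or lower (blue, to the left) in D4-LIF in both dye pairs, with dashed lines for all 7138 genes (31.5% higher, 27.9% lower) and the number of genes in brackets. Cytosolic ribosomal proteins reach 91.7% on the higher side, and fibroblast genes 70% on the lower side; with the Cy3 sign turned these are 2 of 72 and 0 of 10 genes.

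In these lists Hnrnpk, an RNA-binding protein, differed by 0.44 and 1.22 and Pcbp2 by 0.49 and 2.14, both on slide 2. Hmgb2, a chromatin protein of dividing cells, differed by 0.44 and 2.06 and the elongation factor Eef1a1, over 17 clones, by 0.33 and 1.39. The Cy5 differences of the Eef1a1 clones ran from -1.17 to 0.51 on slide 1 and from 1.02 to 2.85 on slide 2. On slide 1, Uqcrh, a subunit of respiratory complex III, read 0.72 and -1.23 in D4-LIF and 0.20 and -1.87 in D4+LIF, and Plk1, a mitotic kinase, read 0.91 and -0.36 in D4-LIF and 0.33 and -0.88 in D4+LIF. Both were higher in D4-LIF within each dye, by 0.59 ± 0.19 and 0.55 ± 0.19 (SE), or by 0.30 and 0.28 with each print grid centred. Perp, a membrane protein induced by p53, read 0.22 and -0.72 in D4-LIF and -0.26 and -1.51 in D4+LIF. Psmd1, a proteasome subunit, differed by 0.61 and 0.32, and Hmgcs1, of cholesterol synthesis, by 0.26 and 0.51. With each print grid centred the mean differences of Perp, Psmd1 and Hmgcs1 were 0.35, 0.19 and 0.11, against 0.64, 0.46 and 0.38 without.

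Of 20 imprinted genes, 8 were higher (40%, against 31.5% of all genes) and 2 lower (10%, against 27.9%) in D4-LIF in both pairs. With the Cy3 sign turned 6 were higher and 4 lower, and with equal spread of the arrays also 6 and 4. Phlda2, a maternally expressed gene of the placenta, read -0.07 and -0.35 in D4-LIF and -0.51 and -0.91 in D4+LIF, a difference of 0.50 ± 0.19 (SE). Peg10, a paternally expressed gene derived from a retrotransposon, differed by 0.75 and 0.59 in 1 clone and by 0.73 and 0.05 in the other, both on slide 1. Grb10 differed by 0.29 and 0.33 and Igf2 by 0.05 and 0.43. Both clones of Peg10 and the single clones of Phlda2 and Grb10 were higher in D4-LIF in both pairs on slide 1, while Kcnq1ot1 (-0.39 and 0.12) and Usp29 (-0.11 and -0.01) were not.

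Most measured genes that the study reported as changed by RT-PCR, a part of those it tested, had higher values in D4-LIF. Of 18 measured, 13 were higher (72.2%, against 31.5% of all genes) and 1 lower (5.56%, against 27.9%) in D4-LIF in both pairs, a list that the study chose on these samples. The study described Hspa8, Hsp90aa1, Eif4a1, Rpl8, Rplp1 and Rps2 as falling once differentiation began, which is another comparison than D4-LIF against D4+LIF. With equal spread of the arrays 3 were higher and 2 lower, with quantile normalization 5 and 4, and with the Cy3 sign turned 4 and 0. An EST that the study named, spotted on slide 1 with the probe name Spryd7, read 3.75 and 1.64 in D4-LIF and 3.14 and 1.23 in D4+LIF, a difference of 0.51 ± 0.19 (SE). Tubb5, a beta-tubulin with 7 clones, differed by 0.45 and 0.69, Hspa8 by 0.24 and 0.58, Eif4a1 by 0.02 and 0.25 and Hsp90aa1 by -0.23 and 0.11. Of the 9 Hsp90aa1 clones, 7 were lower in D4-LIF in both pairs, all on slide 1. Those of slide 2 gave -0.12 and 1.33 and -0.12 and 1.82. On slide 1 the Cy5 differences of the clones ran from -0.57 to 0.54 in Tubb5 and from -0.69 to 0.46 in Hspa8. On slide 2 they ran from 1.30 to 2.11 and from 0.80 to 1.66. Of 8 markers and control genes, 4 were higher and 2 lower in both pairs. Actb differed by 0.65 and 0.09, Gapdh by 0.47 and 0.37 and Hprt by 0.17 and 0.72, so the usual housekeeping genes had higher values in D4-LIF in both pairs.

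Among 534 genes with 3 or more clones, 41 were higher and 9 lower in both pairs in every clone. Tomm20, a receptor of the mitochondrial outer membrane, was higher by 0.13 and 1.96, 0.35 and 2.28, and, on slide 1, 0.94 and 1.47, and averaged 1.19 ± 0.38 (SE). The lower genes of largest difference were Hbb-y, Sfi1, St8sia2 and Meis1, with mean differences of -0.53 to -0.41, of which Sfi1 alone was measured on slide 1 as well.

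Slide 1 in a fit of its own gave a different count. There 80 of 7680 clones passed the adjusted p of 0.05 (1.04%), 70 with higher and 10 with lower values in D4-LIF, and 28 of the 80 lay on opposite sides in the 2 pairs. Of the 80, 23 were in print grid 21, and 22 of these had a negative difference in Cy3 and a large positive one in Cy5. In the 23 clones, apart from that of Gtf3c6 (0.75), the duplicate spots lay 2.32 to 4.89 apart on the D4+LIF array in Cy5. The genes that passed with the same side in both pairs included Zfp36l2, Mt1, Tomm20, Aurkb, Zfp42, Hmgn2, Hint1 and Eomes, with adjusted p from 3.86e-11 to 0.016 by limma. In this fit the spread was largely shared across clones. Gtf3c6, which differed by -0.25 and 3.09, also passed, with an SE of 0.19 against 0.85 in the fit of both slides. These p-values thus follow the size of the mean difference and do not measure how well the 2 pairs of a clone agreed. The count was 0 when each print grid was centred, when the spread of the arrays was made equal, and when the dye term was left out.

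Day 3 EBs gave the only other LIF comparison with values for nearly all clones of both slides. The LIF effect at Day 4 minus that at Day 3 passed the test in 0 of 7138 genes (168 at an unadjusted p under 0.05, smallest adjusted p 0.78), and the Day 4 effect minus the mean of Days 1 to 3 in 0 of 8415 clones with all 16 EB arrays, of which 741 were on slide 1. In Zfp42 the Day 3 pairs differed by -0.84 and -0.96, so all 4 pairs of Days 3 and 4 were lower without LIF. In Mt1 the Day 3 pairs differed by 0.07 and -0.92, in Mt2 by -0.03 and 0.07, in Aurkb by 0.67 and -0.35 and in Eomes by -0.02 and -0.12. Phlda2 was higher without LIF in all 4 pairs, with 0.49 and 0.89 at Day 3. Of all genes, 1187 (16.6%) had the same side in all 4 pairs of both days, and 1388 (19.4%) had 1 side in both Day 4 pairs and the other in both Day 3 pairs. Among these 1388 genes were Pou5f1, with -0.52 and -1.77 at Day 3, and Ptma, with -0.33 and -0.34.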

How the data were processed

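RNA of D4-LIF and D4+LIF EBs was labelled with Cy3 or Cy5 and hybridised with a pooled EB control to cDNA arrays. Per the labels there were 2 biological sets and no RNA was used on more than 1 array. How sets and dyes were matched is not stated: the dye is taken as the replicate, and its term may hold a set effect. The number of arrays limits the precision. The labels describe the pool as EBs of Days 1 to 4, the methods as all samples. The authors scanned the slides, quantified spots in ImaGene and scaled both channels to their mean intensity. What they deposited is a linear ratio for each spot. Channel intensities and the study's blank-spot filter were not used here.

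Ratios were taken to log2, duplicate spots (160 apart) averaged and arrays centred on the median of each slide. Control rows were left out (3840 of 34560 spots), and 1 ratio of 0 was treated as missing. Of 15360 clones 9866 had 1 symbol in the probe table, 274 several and 5220 none, and 9760 of the first were matched to RefSeq by Entrez ID. Limma (version 3.58.1, R 4.3.3) was fitted to the 4 arrays with LIF and dye terms, over 15354 clones or 7138 gene means, with Benjamini-Hochberg adjustment. The code was run on simulated arrays with known changes. These had 1 spread for each slide and no dye effect, unlike the real arrays, so the simulation does not bear on the results here. The named genes were the 10 of smallest p among those with higher, and among those with lower, values in both pairs, all measured LIF pathway genes and targets, 2 of each other list, the study's RT-PCR genes and markers, and genes of 3 or more agreeing clones (123 in all); other list members in the text were picked with their values in view. The members and the 28 gene lists were chosen with earlier results of these data known. Alternatives were no dye term, all 18 or the 16 EB arrays, each Day 4 array left out, 3 other centrings, equal MAD, quantile normalization, Cy3 sign turned, duplicate spots kept apart or within 1, single slides and a 2-fold limit. Chosen after seeing the data were print-grid centring, the tests of slide 1 alone, the Day 3 comparison, and other settings for the gene lists and for the agreement of the dye pairs.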

Additional observations from a re-analysis of the deposited data

How the results depend on the processing

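The count of 0 clones and 0 genes past the threshold was also found without the replicate block, with all 18 or the 16 EB arrays, under every centring, equal MAD, quantile normalization, with the Cy3 sign turned, with the duplicate-spot filter and on slide 2 only. On slide 1 only it was 80 clones and 57 genes. Leaving out 1 array in turn gave 0 to 1811 clones and 0 to 620 genes, and the calls came without the D4+LIF array in Cy3, when D4+LIF is the Cy5 array alone, whose slide 2 stood apart; the lone sample is then assumed to vary like the other groups. The slide 1 count of 80 was 0 with print-grid centring, equal MAD, quantile normalization, no replicate block or all 18 arrays, 25 with the Cy3 sign turned, 44 without print grid 21 and 33 with duplicate spots within 1, and 0 to 0 without 1 array. The 3 clones at least 2-fold apart were 1 without centring, 20 with equal MAD, 32 with quantile normalization, 0 with the Cy3 sign turned, 1 with duplicate spots within 1 and 1 on slide 2 only. The agreement of the dye pairs, r = 0.22, was 0.15 on slide 1, 0.39 on slide 2, 0.0046 with equal MAD, 0.0334 on slide 1 with print-grid centring and -0.22 with the Cy3 sign turned. The cause of these shifts was not tested. Of 123 named genes, 34 had the other sign with the Cy3 arrays turned (Aurkb, Zfp42, Mt2, Hmgn2 and Eomes among them, not Mt1 or Zfp36l2), 37 with equal MAD and 9 with print-grid centring, and 28 passed the threshold without the D4+LIF array in Cy3 and 16 on slide 1 only.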
